A study of Mus musculus with 2 samples.

Results

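Metallothioneins and zinc transporters were examined in RNA-seq of whole omentum, the fat sheet of the abdomen that carries lymphoid clusters called milky spots. The set held 7 genes of the 24346 gene symbols in the files: the metallothionein genes Mt1 and Mt2, the metal-sensing transcription factor gene Mtf1, the zinc importer genes Slc39a8, Slc39a14 and Slc39a10, and the zinc exporter gene Slc30a1. They were chosen by symbol because Mt2 was among the largest increases between the libraries, so the differences below describe these libraries and are not an independent test. Both libraries came from mice given diphtheria toxin (DT) 5 days earlier. One group was WT and the other Postn-DTR, heterozygous mice that carry a DT receptor cassette in the first exon of Postn that codes for protein, so that DT kills cells that use this promoter. The Postn promoter was used to reach Aldh1a2+ fibroblastic reticular cells (FRCs), stromal cells of the milky spots that make retinoic acid, but cells outside the omentum also use it. Age, sex and the number of mice behind each library were not given in the sources used here. There was 1 library per genotype, so no difference has a replicate check and no p-value is given.

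Metallothioneins are small cytoplasmic proteins, rich in cysteine, that bind zinc and copper ions. When free zinc rises, MTF-1, the product of Mtf1, binds metal response elements (MREs) near its target genes, which include Mt1, Mt2 and Slc30a1. Glucocorticoids and inflammatory cytokines are also known to induce metallothioneins. Proteins of the SLC39 (ZIP) family bring zinc into the cytoplasm, and those of the SLC30 (ZnT) family move it out of the cell or into vesicles. ZIP8 and ZIP14, encoded by Slc39a8 and Slc39a14, also carry manganese and iron and are known targets of inflammatory signals.

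To show what the Mt1 and Mt2 transcripts encode, the coding sequences of their first GENCODE transcripts are given 5′ to 3′, with the cysteine codons in capitals.
Mt1: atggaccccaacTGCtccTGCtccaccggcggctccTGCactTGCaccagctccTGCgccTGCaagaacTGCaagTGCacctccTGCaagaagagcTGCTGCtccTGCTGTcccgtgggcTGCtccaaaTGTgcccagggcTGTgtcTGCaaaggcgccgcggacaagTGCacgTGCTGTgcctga
Mt2: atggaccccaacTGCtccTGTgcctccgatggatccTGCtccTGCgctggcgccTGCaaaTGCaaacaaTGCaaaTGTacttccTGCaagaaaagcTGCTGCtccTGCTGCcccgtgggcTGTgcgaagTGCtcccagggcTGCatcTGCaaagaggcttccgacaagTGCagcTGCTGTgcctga
Each has 61 sense codons, of which 20 (32.8%) are cysteine codons, and all 20 are at the same positions in both. The coding sequences were identical at 148 of 186 bases (79.6%). The longest stretch shared by the complete transcripts was 20 bases, and they had 0 runs of 50 bases in common. Reads of that length can therefore be assigned to one or the other by their sequence. The methods of the study give single-end reads longer than this for RNA-seq of sorted cells, with other extraction and library kits than the labels name here, and do not say whether that holds for the whole omentum libraries.

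The promoter windows of Mt2, Mt1 and Slc30a1 are shown because MTF-1 is known to act on all of them. In these libraries Mt1 and Mt2 were far higher in Postn-DTR, while Slc30a1 was close to equal. Each window runs from 250 bases before to 50 bases after the RefSeq start (GRCm38.p6), is printed 5′ to 3′ on the strand of the gene, and has in capitals the letters of the MRE core, searched as TGCACNC and TGCGCNC on both strands.
Mt2, chr8:94172368-94172667, plus strand: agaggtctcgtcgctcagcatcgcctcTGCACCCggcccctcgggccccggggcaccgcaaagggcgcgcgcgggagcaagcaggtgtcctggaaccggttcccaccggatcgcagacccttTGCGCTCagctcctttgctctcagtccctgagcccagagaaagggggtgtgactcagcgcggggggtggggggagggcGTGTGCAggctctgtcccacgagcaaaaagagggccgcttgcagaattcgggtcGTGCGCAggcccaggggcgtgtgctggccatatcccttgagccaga
Mt1, chr8:94178839-94179138, plus strand: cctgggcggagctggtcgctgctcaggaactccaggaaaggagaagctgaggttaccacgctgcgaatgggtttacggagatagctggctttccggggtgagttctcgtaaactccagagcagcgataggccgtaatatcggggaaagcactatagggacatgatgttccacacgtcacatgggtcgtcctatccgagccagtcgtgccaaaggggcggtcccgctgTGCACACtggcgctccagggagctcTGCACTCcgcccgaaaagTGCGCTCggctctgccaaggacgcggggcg
Slc30a1, chr1:191906531-191906830, plus strand: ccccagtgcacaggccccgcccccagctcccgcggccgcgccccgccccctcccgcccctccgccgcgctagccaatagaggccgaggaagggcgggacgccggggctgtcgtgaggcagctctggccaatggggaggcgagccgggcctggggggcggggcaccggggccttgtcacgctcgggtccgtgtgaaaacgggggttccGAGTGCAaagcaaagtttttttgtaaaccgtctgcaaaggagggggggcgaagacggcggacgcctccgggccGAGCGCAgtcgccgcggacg
Windows were found for 6 of the 7 genes, all but Slc39a14. Mt2 had 4 cores, which began at -223, -128, -50 and 5 from the start, where 0.518% of all 32817 windows had 4 or more. Mt1 had 3 cores, at -23, 3 and 21, where 1.97% of windows had 3 or more. Some annotated Mt1 transcripts start 122 and 152 bases downstream of the RefSeq start, beyond the end of the window. The principal Mt2 transcript starts 46 bases downstream of its RefSeq start, and another starts 242 bases downstream, also beyond the window. The counts of cores hold for the RefSeq starts only. Slc30a1 had 2 cores, at -43 and 31, and 7.12% of windows had at least 2. Mtf1 and both windows of Slc39a10 had 0, and of the windows of Slc39a8 one had 0 and the other had 1, at -19. A core of either form was in 25.7% of all windows. The antioxidant response element core TGACNNNGC was in the windows of Mt2 and Slc30a1 and in one of Slc39a8, and in 12.4% of all windows. None of the cores printed above overlapped another core or this element. The glucocorticoid half-site TGTTCT (19.0% of windows) was in none of the metallothionein windows, nor was the STAT element TTCNNNGAA (8.29%). The half-site was in the window of Mtf1 and the STAT element in a window of Slc39a10. Sequence outside the windows, such as that further upstream, was not searched, so nothing is read from these absences. These matches are letters only, and binding was not measured.

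The libraries were of like depth. From the steps between low values, the FPKM (fragments per kilobase of transcript, scaled to the number of mapped fragments) rested on about 23200000 fragments in WT and 24000000 in Postn-DTR, so that 1 FPKM in a transcript of 2 kb stood for about 41.8 and 43.2 reads. The targeted gene, Postn, stood at 58.3 FPKM in WT against 16.2 in Postn-DTR. The heterozygous mice carry the cassette in Postn itself, and its part in this value was not tested. Aldh1a2, a marker of the FRCs that earlier studies also reported in mesothelial cells, had 85.5 and 63.3. Adipocyte and mesothelial markers were present in both libraries, with 0 of 6 at 0 in each list, and 4 of 5 pancreatic islet markers were at 0 in WT and all 5 in Postn-DTR. Pancreatic acinar markers, by contrast, summed to 9510 FPKM in WT against 18.3 in Postn-DTR. The FPKM of all genes summed to 542190 and 671882. A change is log2(FPKM + 1) in Postn-DTR less that in WT, a scale that understates the fold of low genes, and a fold is the ratio of the FPKM themselves. Over the 13127 genes whose mean FPKM reached 1 the median change was 0.02, but with the acinar markers removed and the totals made equal it was -0.27. The acinar markers were only 9510 of the 542190 FPKM in WT, so this shift came mainly from making the unequal totals equal. A change of about that size in a single gene cannot be told apart from scaling.

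Of the 7 genes, all of which passed the minimum, 4 were at least 2-fold higher in Postn-DTR and 0 at least 2-fold lower. Over all genes compared, 3.88% were at least 2-fold higher and 3.12% lower. Nothing is read from this count, since the same values led to the choice of the set. The genes fell apart into Mt1, Mt2, Slc39a8 and Slc39a14, which were far higher, and Slc39a10, Slc30a1 and Mtf1, which were close to equal. The median change of the 7 was 2.28.

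**Figure D1:**
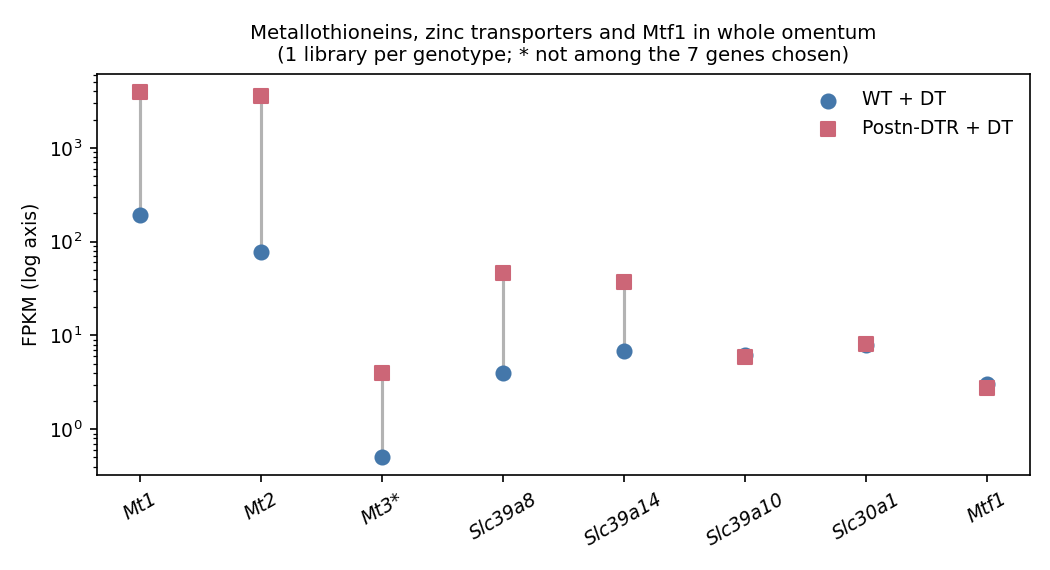
FPKM on a log axis (y) of each gene (x) in the WT library (circles) and the Postn-DTR library (squares), 1 library per genotype, so there are no error bars. Mt1 and Mt2 lie highest in Postn-DTR, at 3963 and 3543, while the symbols of Slc39a10, Slc30a1 and Mtf1 overlap.

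Mt1 (ENSMUSG00000031765, chromosome 8, 94179082 to 94180327, plus strand, GRCm38) stood at 190.2 FPKM in WT against 3963 in Postn-DTR. It was 20.8-fold higher, with a change of 4.37, the 13th highest of all genes compared. By level it went from rank 404 of all genes in WT to rank 14 in Postn-DTR. Mt2 (ENSMUSG00000031762, chromosome 8, 94172664 to 94173568, plus strand) stood at 77.4 FPKM in WT against 3543 in Postn-DTR. It was 45.7-fold higher, with a change of 5.50, the 7th highest, and went from rank 1078 to rank 17 by level. The lower of the pair in WT thus had the larger fold, and their levels came close together: Mt1 was 2.46 times Mt2 in WT and 1.12 times in Postn-DTR. Together they made up 0.0494% of all FPKM in WT and 1.12% in Postn-DTR. In estimated reads, Mt1 had 1540 and 33194 and Mt2 559 and 26443. Exact 95% intervals from these reads, which cover counting error only and not the spread between mice, were 19.8 to 21.9 for the ratio of Mt1 and 42.1 to 49.8 for that of Mt2. Both transcripts are short (549 and 511 bases), so their FPKM depend on the fragment length assumed, but this applies to both libraries alike. Where the additional RNA came from is not visible in whole tissue, in which more cells of a type and more RNA per cell cannot be told apart.

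The remaining metallothioneins lie in the same cluster of 43.1 kb. Mt3, best known from the brain, stood at 0.511 FPKM in WT against 3.95 in Postn-DTR, a change of 1.71. This rested on an estimated 4 and 32 reads, with a 7.73-fold higher value and a counting interval of 2.74 to 30.1. It passed the minimum only through Postn-DTR, and with 5 instead of 1 added before the logarithm its change was 0.70, no longer 2-fold. Mt4, known from stratified epithelia, was listed at 0 in both libraries. The protein-coding genes within 100 kb on either side and in the files were Ogfod1, Bbs2 and Nup93. Their changes lay between -0.18 and 0.50. Ogfod1 stood at 5.12 FPKM in WT against 4.39 in Postn-DTR, Bbs2 at 5.88 and 6.54, and Nup93 at 10.6 and 15.4. All of these neighbours were within 2-fold, and Nup93, 1.45-fold higher, differed most.

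**Figure D2:**
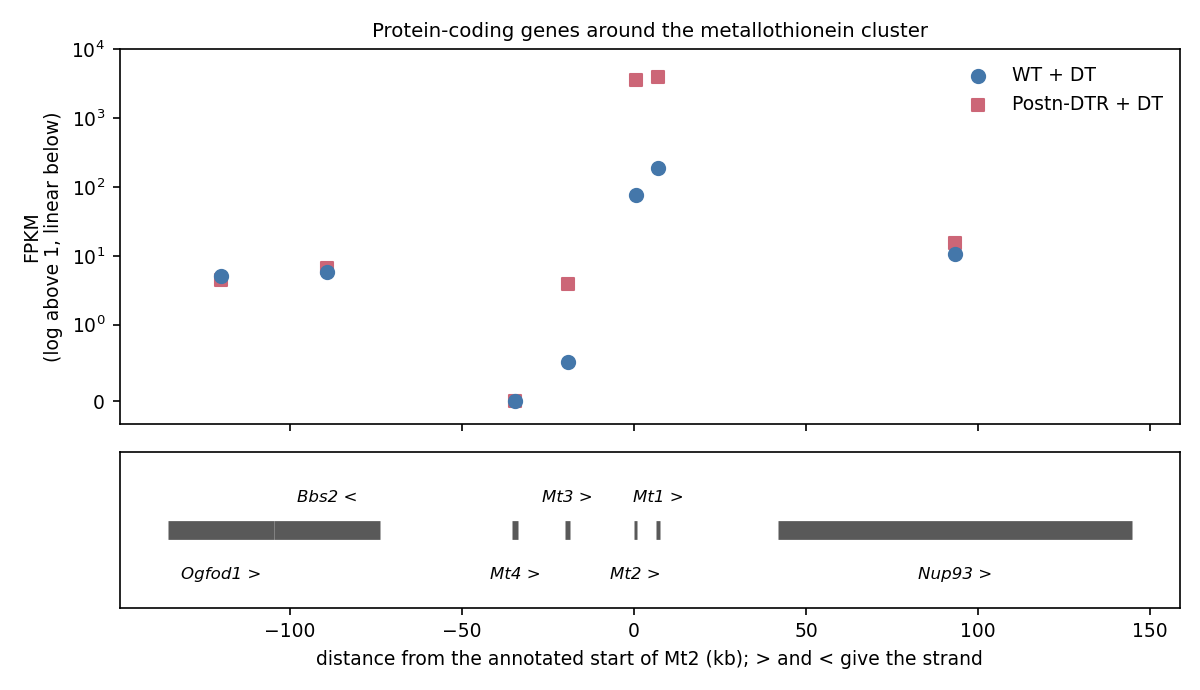
Top, FPKM (log above 1, linear below) of the protein-coding genes around the metallothionein cluster in WT (circles) and Postn-DTR (squares); bottom, their extent in kb from the annotated start of Mt2, with the strand shown by > or <. Mt3, Mt2 and Mt1 were higher in Postn-DTR, while the symbols of Ogfod1, Bbs2 and Nup93 lie close together.

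Among the importers, Slc39a8 (ENSMUSG00000053897, chromosome 3, 135825279 to 135888572, plus strand) stood at 3.98 FPKM in WT against 46.6 in Postn-DTR. It was 11.7-fold higher, with a change of 3.26 and a counting interval of 10.4 to 13.2 for the ratio. Slc39a14 (ENSMUSG00000022094, chromosome 14, 70303469 to 70351425, minus strand) stood at 6.88 FPKM in WT against 37.3 in Postn-DTR. It was 5.42-fold higher, with a change of 2.28 and an interval of 5.01 to 5.86. Their changes were the 36th and 96th highest of all genes compared. Slc39a10 (ENSMUSG00000025986, chromosome 1, 46807544 to 46892852, minus strand), which encodes an importer of the cell surface that zinc is known to repress through MTF-1, had an FPKM of 6.25 and 5.89. Its change was -0.07 and the interval of its ratio, 0.851 to 1.04, contained 1.

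Across the complete SLC39 family the higher values were those of Slc39a8 and Slc39a14. Of its 14 genes 12 were compared, and 2 were at least 2-fold higher, 1 lower and 9 within 2-fold. The 9 had changes from -0.42 (Slc39a3) to 0.48 (Slc39a4). Slc39a1, an importer of the plasma membrane found in most cells, was the most abundant in both libraries, with an FPKM of 91.3 and 108.2. Slc39a7, which releases zinc from the endoplasmic reticulum, came second, with 71.3 and 96.8. Per length, Slc39a8 moved from 10th to 3rd place in the family and Slc39a14 from 7th to 4th. Together they gave 4.32% of the summed FPKM of the family in WT and 23.2% in Postn-DTR. The sum of the other 12 was 240.4 in WT and 277.8 in Postn-DTR.

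The lower SLC39 gene was Slc39a5, an importer known from intestine and pancreas. It stood at 1.97 FPKM in WT against 0.0487 in Postn-DTR, with a change of -1.50. In estimated reads this was 83 against 2, a 40.3-fold lower value with a counting interval of 11.5 to 360.4. The acinar markers, of which 12 of 12 were lower, moved with it, and their part in this value was not tested. Its mean FPKM of 1.01 only just passed the minimum. Slc39a2 (0.564 and 0.195) and Slc39a12 (0.173 and 0.252) were under the minimum.

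**Figure D3:**
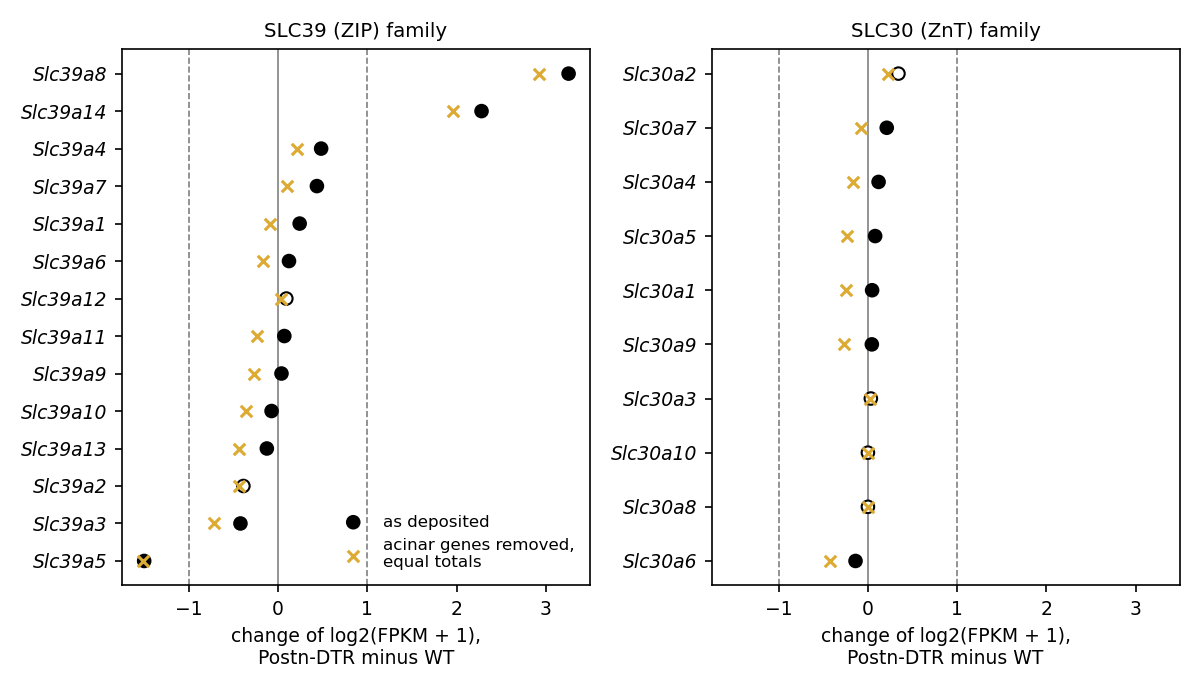
Change in log2(FPKM + 1) from WT to Postn-DTR (x), of every SLC39 and SLC30 gene (y), as deposited (circles, open where the mean FPKM was under 1) and with acinar markers removed and totals made equal (crosses). Dashed lines mark 2-fold; only Slc39a8 and Slc39a14 lie above the upper line and Slc39a5 below the lower one under either scaling.

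The exporters differed little. Slc30a1 (ENSMUSG00000037434, chromosome 1, 191906767 to 191913247, plus strand), which moves zinc out across the plasma membrane, stood at 7.85 FPKM in WT against 8.14 in Postn-DTR. Its change was 0.05, its ratio had an interval of 0.947 to 1.14, and its direction turned at equal totals, to -0.25. Of the 10 SLC30 genes 6 were compared and 0 were past 2-fold, with changes from -0.14 (Slc30a6) to 0.21 (Slc30a7). Slc30a5, a transporter of the secretory pathway, was the most abundant, with an FPKM of 20.5 and 21.7. Slc30a2, known from secretory glands including the pancreas, was under the minimum but was 2.29-fold higher, at 0.262 and 0.600, which rested on an estimated 18 and 43 reads with an interval of 1.30 to 4.25. Slc30a8, the transporter of insulin granules, and Slc30a10, an exporter of manganese, were listed at 0 in both libraries. Slc30a3, of synaptic vesicles, was at 0 in WT and at 0.0231 in Postn-DTR, the value of about 1 read. Of the 20 SLC39 and SLC30 genes outside the chosen set 14 were compared, and 0 were at least 2-fold higher, 1 lower and 13 within 2-fold.

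Mtf1 (ENSMUSG00000028890, chromosome 4, 124802104 to 124849800, plus strand) stood at 3.02 FPKM in WT against 2.78 in Postn-DTR. Its change was -0.09 and its ratio had a counting interval of 0.812 to 1.04. MTF-1 is controlled mainly by zinc binding and its move to the nucleus, which transcript levels do not show. Other genes linked to MTF-1 were set beside it. Gclc, which makes the first enzyme of glutathione synthesis, had an FPKM of 8.99 and 13.0, a change of 0.49. Sepw1, encoding a small selenoprotein, had 429.5 and 429.0. With Slc30a1 and Slc39a10, none of these 4 genes was past 2-fold in the direction of Mt1 and Mt2 or against it.

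**Figure D4:**
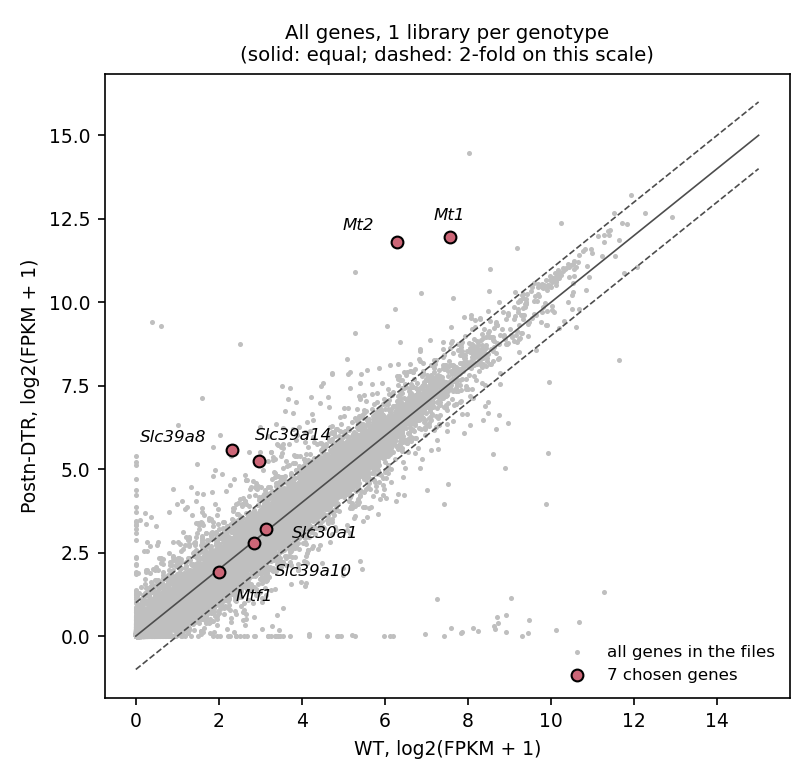
Each gene by its log2(FPKM + 1) in WT (x) and Postn-DTR (y), with the 7 chosen genes marked. Mt1, Mt2, Slc39a8 and Slc39a14 lie above the upper dashed 2-fold line, and Slc30a1, Slc39a10 and Mtf1 lie near the solid line of equality.

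Genes of other metals were compared next, beside 3.88% of all genes compared that were at least 2-fold higher and 3.12% lower. Of the copper handling genes 9 of 10 were compared and 0 were past 2-fold, with a median change of 0.19. The importer gene Slc31a1 had an FPKM of 15.9 and 21.4, and the exporter gene Atp7a 4.04 and 3.15. Of 8 iron and manganese genes other than Slc39a8 and Slc39a14, 3 were at least 2-fold higher and 0 lower, with a median of 0.50. At equal totals only Hamp of these 3 was past 2-fold, and the median was 0.18. The ferritin gene Fth1 had 2926 and 6462. Slc11a1, a metal transporter gene of phagosomes, had a change of 1.11, and Hamp, the gene of the iron hormone hepcidin, was listed at 0 in WT and at 3.45 in Postn-DTR, an estimated 0 and 17 reads, so that it passed the minimum only through Postn-DTR. Of the other zinc handling genes, 6 were compared and 0 were past 2-fold. S100a8 and S100a9, whose products form the zinc-binding complex calprotectin, had 169.7 and 338.6, and 156.6 and 249.3.

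Since glucocorticoids and cytokines are known inducers of metallothioneins, genes of those responses were listed as well. These lists were chosen with earlier results of these data known, so their counts are a description only. Over all genes compared, 3.88% were at least 2-fold higher and 3.12% lower. At equal totals the 509 higher and 410 lower genes became 300 and 736. Of 12 glucocorticoid response genes 10 were at least 2-fold higher and 0 lower, with a median change of 1.45, and at equal totals 7 were higher, with a median of 1.12. Fkbp5, a co-chaperone of the glucocorticoid receptor, stood at 43.8 FPKM in WT against 148.0 in Postn-DTR, and Tsc22d3, which encodes GILZ, 90.8 and 241.4. The receptor gene Nr3c1 itself had 22.0 and 14.1, within 2-fold. Of 14 IL-6 and STAT3 response genes 9 were at least 2-fold higher and 1 lower, with a median of 2.08. At equal totals 8 were higher and 1 lower, with a median of 1.75. Il6, counted among the higher ones, had 0.436 and 5.58, an estimated 10 and 126 reads, so that it passed the minimum only through Postn-DTR. Socs3, the feedback inhibitor of STAT3, had 17.8 and 143.4. The lower one was Orm1, an acute-phase gene, at 182.2 and 22.6. Of 9 oxidative stress genes 2 were at least 2-fold higher, with a median of 0.49: Hmox1, which encodes heme oxygenase, had 57.1 and 259.1, and the glutathione reductase gene Gsr 19.7 and 52.6. Macrophage markers moved with the same libraries. All 6 had a change above 0 and 4 were at least 2-fold higher. Their sum was 2852 in WT against 4772 in Postn-DTR, most of it Lyz2 (2459 and 3563), which was within 2-fold. Csf1r (158.3 and 219.1) was within 2-fold too, and Cd14, with the largest change of the list, had 33.6 and 230.1. Neutrophil markers were mixed, with 2 higher and 2 lower of 6 and sums of 376.4 and 674.3. Of these, Cxcr2 (0.514 and 4.03, higher) passed the minimum only through Postn-DTR, and Mpo (3.84 and 0.726, lower) only through WT. The part of any of these responses or cells in the metallothionein and importer values was not tested.

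**Figure D5:**
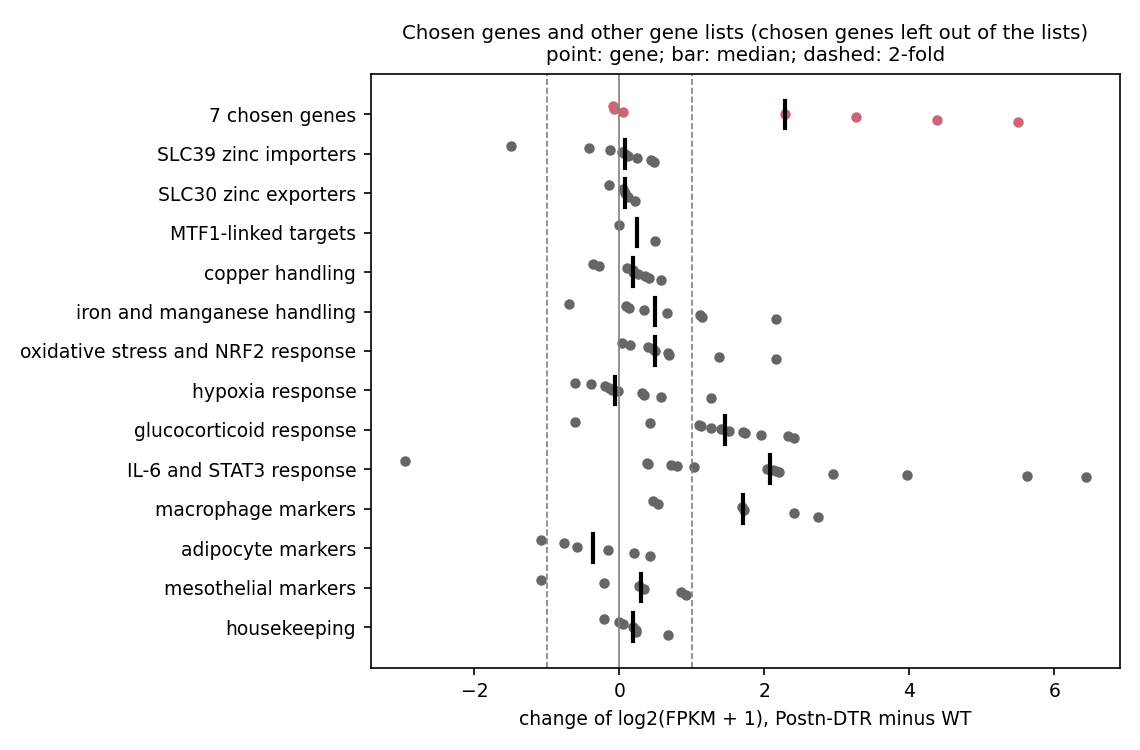
Change in log2(FPKM + 1) from WT to Postn-DTR (x), of each compared gene (points) in the 7 chosen genes and in other lists (y), with medians as bars and 2-fold as dashed lines. The medians of the glucocorticoid, IL-6 and STAT3, and macrophage lists lie beyond 2-fold at 1.45, 2.08 and 1.70, whereas those of the other SLC39 and SLC30 genes lie at 0.07 and 0.08.

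By closeness in change over these 2 libraries, which share no replicate, the 5 genes nearest to Mt2 were Serpina3m (2.03 and 138.1), Mir29c, Lcn2 (37.7 and 1908), Spp1 (1.02 and 78.3) and Mir5098. Lcn2 encodes an iron-sequestering protein of acute inflammation and Serpina3m a protease inhibitor. Closeness in change was not closeness in fold, because the added 1 shrinks the fold of genes that are low in WT. Serpina3m was 68.0-fold, Spp1 76.6-fold and Lcn2 50.6-fold higher, against 45.7-fold for Mt2. The genes nearest to Mt1 were Snora21, Snora65, Mir1668, F10, the gene of coagulation factor X (3.08 and 64.5), and Timp1, an inhibitor of metalloproteinases (10.5 and 178.7). F10 was 20.9-fold and Timp1 17.1-fold higher, against 20.8-fold for Mt1. The microRNA and snoRNA genes of both sets were listed at 0 in WT and at 17.6 (Snora65) to 40.7 FPKM (Mir29c) in Postn-DTR. They passed the minimum only through Postn-DTR, and their changes rest on the 1 added before the logarithm. Reads were not estimated for them, so nothing is read from their closeness.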

How the data were processed

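WT omentum was compared with Postn-DTR omentum, whole, 5 days after DT, with 1 library per genotype, grouped by the genotype label. Per the labels, miRNeasy was used for RNA and a stranded TruSeq kit for mRNA libraries. The authors deposited FPKM, 1 value per gene symbol. The submitters' processing notes name TopHat2 2.1.1, Bowtie2 2.2.8, SAMtools 0.1.18, Cuffdiff 2.2.1 and mm10, without their settings or the annotation. Values were used as deposited. Changes are differences of log2(FPKM + 1) over genes whose mean FPKM reached 1, and calls are at 2-fold. Depth was estimated from genes with 1 transcript of over 600 bases in GENCODE M21 (GRCm38), as the number of fragments and the reduction in length (200 bases) that made low values whole reads. Of values of under 6 reads 77.7% in WT and 77.8% in Postn-DTR came within 0.1 of a whole read, in the same values that gave the estimate. Reads per gene used the principal transcript and are approximate. Intervals of ratios are exact binomial intervals at 95%. The fold and depth steps were tested on simulated data. Python 3.11.15, pandas 2.3.3 and scipy 1.17.1 were used.

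Named genes were the 7 genes, all metallothionein, SLC39 and SLC30 genes, members of the gene lists, the 5 genes nearest in change to each of Mt1 and Mt2, and the protein-coding neighbours within 100 kb, which were added after the values were seen. The 7 genes and the lists were chosen with earlier results of these data known. Promoter windows were taken from RefSeq (GRCm38.p6) and coding sequences from GENCODE M21. Ly6g was on a list but not analysed here. Of 7 genes on the MTF-1 list 6 had values, and of 8 on the list of other zinc handling 7 had values.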

Additional observations from a re-analysis of the deposited data

How the results depend on the processing

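With 1 library per genotype nothing could be left out, and no paired analysis was possible because no genotype has a second library. Under all 9 alternatives 4 of the 7 genes stayed past the threshold as higher and 0 as lower, and 2 SLC39 or SLC30 genes as higher. The threshold was 2-fold except where 1.5-fold or 3-fold was the alternative. With a minimum mean of 10 FPKM, Mtf1, Slc39a10 and Slc30a1 were no longer compared. The 1 lower transporter gene, Slc39a5, was no longer counted (0) with a pseudocount of 5, a minimum mean of 10 FPKM or a 3-fold threshold. Mt3 was not past 2-fold with a pseudocount of 5 (0.70) and was under the minimum mean of 10 FPKM. With a pseudocount of 0.1 the change of Slc39a8 was 3.52 and of Slc39a14 2.42, and with 5 they were 2.52 and 1.83. With both libraries at the same 75th percentile Mt1 changed by 4.30. With acinar markers removed and equal totals the changes were 4.04 for Mt1, 5.16 for Mt2, 2.93 for Slc39a8, 1.96 for Slc39a14, -0.33 for Mtf1, -0.35 for Slc39a10 and -0.25 for Slc30a1, each lower than as deposited because the Postn-DTR values are scaled down by construction. Over all genes the 509 higher and 410 lower became 300 and 736 at equal totals (29.0% higher instead of 55.4%), 303 and 173 with a minimum mean of 10 FPKM, 287 and 168 with a pseudocount of 5, 199 and 153 at 3-fold and 1294 and 1160 at 1.5-fold. With a pseudocount of 0.1 they became 642 and 643. The median changes of the other SLC39 genes (-0.23), the other SLC30 genes (-0.24) and copper genes (-0.13) were below 0 at equal totals, and that of iron and manganese genes was 0.18. Those of the glucocorticoid list (1.12 to 1.49) and the IL-6 and STAT3 list (1.38 to 2.11) stayed past 2-fold. The MTF-1 list, with only 2 compared genes outside the chosen set, had a median of 0.24 as deposited and -0.08 at equal totals. Its median under the other alternatives is not given. Depth limits Mt3, Hamp, Il6, Slc39a5, Slc30a2 and Slc30a3, which rest on few estimated reads.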

Other observations

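Lists that bear less directly on metal handling were also described, beside 3.88% of all genes compared that were at least 2-fold higher and 3.12% lower. Of 10 hypoxia response genes 1 was at least 2-fold higher and 0 lower, with a median change of -0.07, and at equal totals 0 were higher. The higher one was Bnip3, a mitophagy receptor gene, at 83.8 FPKM in WT against 202.4 in Postn-DTR, while Vegfa, the vascular growth factor gene, had 79.7 and 51.6. T cell markers were all below 0 in change, with 4 of 5 at least 2-fold lower and a median of -1.08, and B cell markers had 3 of 5 lower and a median of -1.23. Of 7 fibroblast markers 2 were lower, Dpt (236.9 and 67.3) and Ccl19 (61.1 and 17.8). Endothelial markers were all within 2-fold, with a median of -0.13. Of the hepatocyte markers only Alb passed the minimum, at 2.17 and 1.22, and the 7 housekeeping genes were within 2-fold, with a median of 0.19 that was -0.12 at equal totals.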
